A study of Drosophila melanogaster with 8 samples.

Results

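The genotype by stage interaction asks of each gene whether the difference between A4 and A12 females depended on stage. It was computed per gene row as (A4 adults minus A12 adults) minus (A4 larvae minus A12 larvae) on log2(FPKM + 1), after the median of each library was taken off, and it used all 8 of the 8 libraries of the series. FPKM is the number of fragments mapped to a gene model, scaled to its length and to the size of the library. Of 15296 gene models, 9655 were tested, and 1504 of these had an interaction. A positive interaction means that A4 stood higher relative to A12 in adults than it did in larvae, and a negative one means the reverse. The 4 groups held 2 libraries each: A4 adults, A12 adults, A4 larvae and A12 larvae. A4 females carried the chromosome 2 inversion as In(2)A4/In(2)A4, and A12 females were labelled A12/A12. The design text sets wild type against animals with position effect variegation, without saying what A12 stands for. Adults were 2 to 3 days old, larvae were in the third instar, all were raised at 18 °C, and RNA came from the whole organism. The A4 larvae were picked as non-fluorescent animals out of a stock balanced over CyO-GFP, and the labels name no such step for the A12 larvae or for adults.

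Position effect variegation is the patchy silencing of genes that a chromosomal break has put beside heterochromatin, the condensed chromatin around centromeres. Its extent can change in the course of development. An interaction of genotype with stage shows whether the genotype difference is unequal between larvae and adults, not whether it is present in adults. The third larval instar is itself a time of rapid change: pulses of the moulting hormone ecdysone switch the salivary gland through successive secretory programmes, stop feeding and prepare the cuticle for pupariation. The labels give no age inside that instar. Larval age therefore cannot be told apart from genotype, and every interaction below includes the larval difference.

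The deposited values hold no read counts, so the depth is unknown, and the labels do not say whether the 2 libraries of a group came from separate cultures. The p-values therefore measure only the spread between these libraries, which may be technical. The median tested gene stood at 13.3 to 15.6 FPKM in adult and 6.51 to 10.7 FPKM in larval libraries. The 2 log2 profiles of a group correlated at 0.957 to 0.968 across genes, as a description. A single library stood apart: of 55 genes known from testis, 28 stood at or above 1 FPKM in replicate 2 of the A4 larvae but 4 in replicate 1, against 4 to 6 in the A12 larvae and 7 or 8 in each adult library, although all animals were labelled female. Results with and without that library are given below. In whole animals, fewer cells of a type and less RNA per cell cannot be told apart. Positions are in build dm3, counted from 1. Libraries are named by group and replicate number, so that A4 larvae 2 is replicate 2 of A4 larvae.

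Interactions were common, and most of these genes also differed between the genotypes in larvae. At an adjusted p under 0.05 in limma, 1504 of the 9655 tested genes (15.6%) had an interaction, 572 positive (5.92%) and 932 negative (9.65%). In the same fit A4 and A12 adults differed in 64 genes (0.663%), of which 17 stood higher and 47 lower in A4, whereas A4 and A12 larvae differed in 2304 (23.9%), of which 1322 stood higher and 982 lower in A4. Of the genes with a larval difference, 1323 (57.4%) had an interaction, and of those with an adult difference 49 did. In genes with an interaction the median size of the interaction was 1.72 on the log2 scale, that of the larval difference 1.47 and that of the adult difference 0.30. Over all tested genes these medians were 0.52, 0.41 and 0.22. An interaction above 5 in either direction was seen in 67 genes and above 2 in 603. All 1504 kept the sign of their interaction over the 16 ways of taking 1 library from each group, as 49.0% of all tested genes did.

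The balance of positive and negative calls depended on how libraries were scaled. Without centring 1049 genes were positive and 652 negative, and after quantile normalization 772 and 799. The whole distribution of larval values lay lower in A4: without centring the median difference over all genes was -0.05 in adults and -0.43 in larvae, which gives a median interaction of 0.37, against -0.06 with centring. The larval calls turned with it, to 847 higher and 2512 lower in A4 without centring and 1122 and 1184 after quantile normalization. Under all 3 scalings 1163 genes had an interaction of the same sign. The counts also changed when a single library was left out. Such a fit has 1 library in a group and fewer degrees of freedom. A lower count therefore does not show that the library left out carried the calls. Leaving out A4 adults 1 or A4 adults 2 lowered the counts to 303 and 495 or to 239 and 430 positive and negative genes, A12 larvae 1 gave 301 and 570, and A12 adults 2 gave 392 and 538. Without A4 larvae 2, the library with testis RNA, 398 were positive and 698 negative, and 952 of the 1504 were called again with the same sign. With each library left out in turn, 578 genes were called every time, and 207 positive and 359 negative genes were also called under all 3 scalings.

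**Figure D1:**
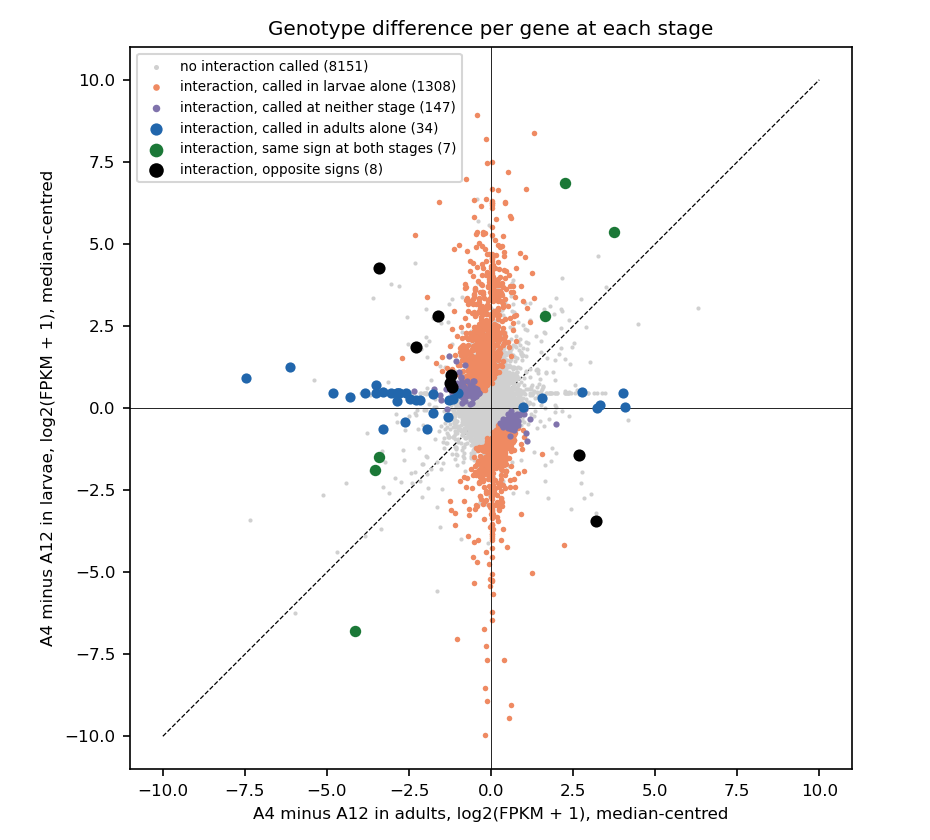
Each point is 1 of the 9655 tested genes, placed by its A4 minus A12 difference in adults (x axis) and in larvae (y axis), both on median-centred log2(FPKM + 1); the dashed line marks equal differences. Genes with an interaction are coloured by the stages at which the difference was called, and the 1308 called in larvae alone stretch along the y axis while 34 called in adults alone lie along the x axis.

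Most interactions came with a larval difference that passed and an adult one that did not. The p-values were adjusted in each contrast apart, so with few adult calls the adult cut on unadjusted p was the stricter one. At an unadjusted limma p under 0.05, 1361 of all tested genes differed in adults and 3631 in larvae. A gene called in larvae alone can therefore still differ in adults. The larval difference alone passed in 1308 of the 1504 genes (87.0%), 500 with a positive and 808 with a negative interaction. The adult difference alone passed in 34 genes, 7 positive and 27 negative. Both passed in 15, with opposite signs in 8 and with the same sign but unequal size in 7. In 147 genes neither difference passed on its own although the interaction did, and this count was 57 without A4 adults 1, 32 without A4 adults 2, 38 without A12 adults 2, 93 without A4 larvae 2 and 84 without A12 larvae 1. The count in larvae alone was 683, 595, 835 and 744 without A4 adults 1, A4 adults 2, A12 adults 2 and A12 larvae 1, in that order. The larval difference was the larger of the pair in 1330 genes with an interaction (88.4%), against 65.8% of all tested genes. The adult and larval differences, which share no library, correlated at 0.073 over all tested genes, given here as a description.

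The group in which a gene stood highest or lowest fell into a few patterns. A4 adults and A12 larvae enter the interaction with a plus sign, and A12 adults and A4 larvae with a minus sign. Choosing genes by the sign of the interaction therefore largely fixes which of these pairs is high and which low. The contrasts with all tested genes below follow largely from that choice and were not tested. Which stage held the highest or lowest group is not fixed by the sign. Of the 572 positive genes 479 (83.7%) were highest in A12 larvae and 78 (13.6%) in A4 adults, against 30.2% and 22.4% of all tested genes. Of the 932 negative genes 580 (62.2%) were highest in A4 larvae and 299 (32.1%) in A12 adults, against 25.1% and 22.3% of all tested genes, and 593 (63.6%) were lowest in A12 larvae, against 30.4%. Leading genes thus had high RNA in A12 larvae, high RNA in A4 larvae, or low RNA in A12 larvae with both adult groups also high.

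The first pattern, high in A12 larvae, held the largest positive interactions. Drsl5 (3L 3316781 to 3317144), 1 of the genes related to the antifungal peptide gene Drosomycin, had 252 and 198 FPKM in A4 adults, 166 and 146 in A12 adults, 1.67 and 1.43 in A4 larvae and 3068 and 1930.0 in A12 larvae. Its level was high in A12 larvae, intermediate in both adult groups and lowest in A4 larvae, and no 2 groups overlapped. The interaction was 9.99 ± 0.29 (adjusted p = 8.55e-05), made of 0.55 in adults and -9.44 in larvae. A relative in the same cluster, Drsl2 (3L 3314349 to 3314681), had 5.32 and 1.76 FPKM in A4 adults, 2.18 and 0 in A12 adults, 21.7 and 37.3 in A4 larvae and 1702 and 1001 in A12 larvae. Here both larval groups lay above the adults, and the interaction was 6.27 ± 0.80 (adjusted p = 0.004797). PGRP-SB2 (3L 16719641 to 16720388), of the family that recognises bacterial peptidoglycan, was detected almost only in A12 larvae, at 196 and 106 FPKM, and was listed at 0 in 5 of the other libraries. Its interaction was 6.52 ± 0.42 (adjusted p = 0.000482). PGRP-SB2 passed the filter on low values, a mean of at least 1 FPKM, only through A12 larvae, which fixed its positive sign.

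The gene e (ebony, 3R 17055561 to 17062900) makes N-beta-alanyl dopamine, the precursor of the light-coloured sclerotin of cuticle. It had 6.08 and 7.98 FPKM in A4 adults, 3.19 and 8.12 in A12 adults, 1.16 and 0.423 in A4 larvae and 757 and 325 in A12 larvae. A12 larvae exceeded every other library, A4 larvae lay below both adult groups, and the adult groups overlapped. The interaction was 8.09 ± 0.73 (adjusted p = 0.00158) with 0.40 in adults and -7.69 in larvae.

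CG7924, CG34244 and CG7906 neighbour each other on chromosome arm 3L and behaved alike. CG7924 (3L 14226569 to 14227709) had 1.04 and 1.48 FPKM in A4 adults, 0.434 and 0.594 in A12 adults, 0.538 and 0.772 in A4 larvae and 1709 and 843 in A12 larvae. CG34244 (3L 14228153 to 14229041) reached 1119.8 and 467 FPKM in A12 larvae and CG7906 (3L 14229735 to 14231372) 1038 and 472, and neither exceeded 1.13 FPKM elsewhere. Their interactions were 9.65 ± 0.39, 8.80 ± 0.44 and 8.37 ± 0.48 (adjusted p = 0.000137, 0.00023 and 0.000337). All 3 were thus abundant in A12 larvae and near 0 in A4 larvae and in adults of both genotypes. They passed the filter on low values only through A12 larvae, which fixed their positive sign. The same holds for CG32762, CG4151 and CG34193, named next. On the X chromosome CG32762 (X 5394298 to 5395219) had 122 and 84 FPKM in A12 larvae, and next to it CG4151 (X 5395865 to 5396608) had 300.3 and 212 FPKM there. In the other groups CG32762 was listed at 0 in every library and CG4151 did not exceed 0.494 FPKM. CG14664 (3R 1049861 to 1050491) and CG34193 (2R 13397449 to 13398303) followed the same course. CG14664 had 2386 and 1282 FPKM in A12 larvae and at most 3.49 FPKM elsewhere, and CG34193 had 228 and 67.8 FPKM in A12 larvae and at most 0.0624 FPKM elsewhere. So did the long noncoding RNA pncr015:3L (3L 7399423 to 7399719), at 693 and 271 FPKM in A12 larvae, whose interaction of 7.55 ± 0.91 did not pass with a pseudocount of 0.1.

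**Figure D2:**
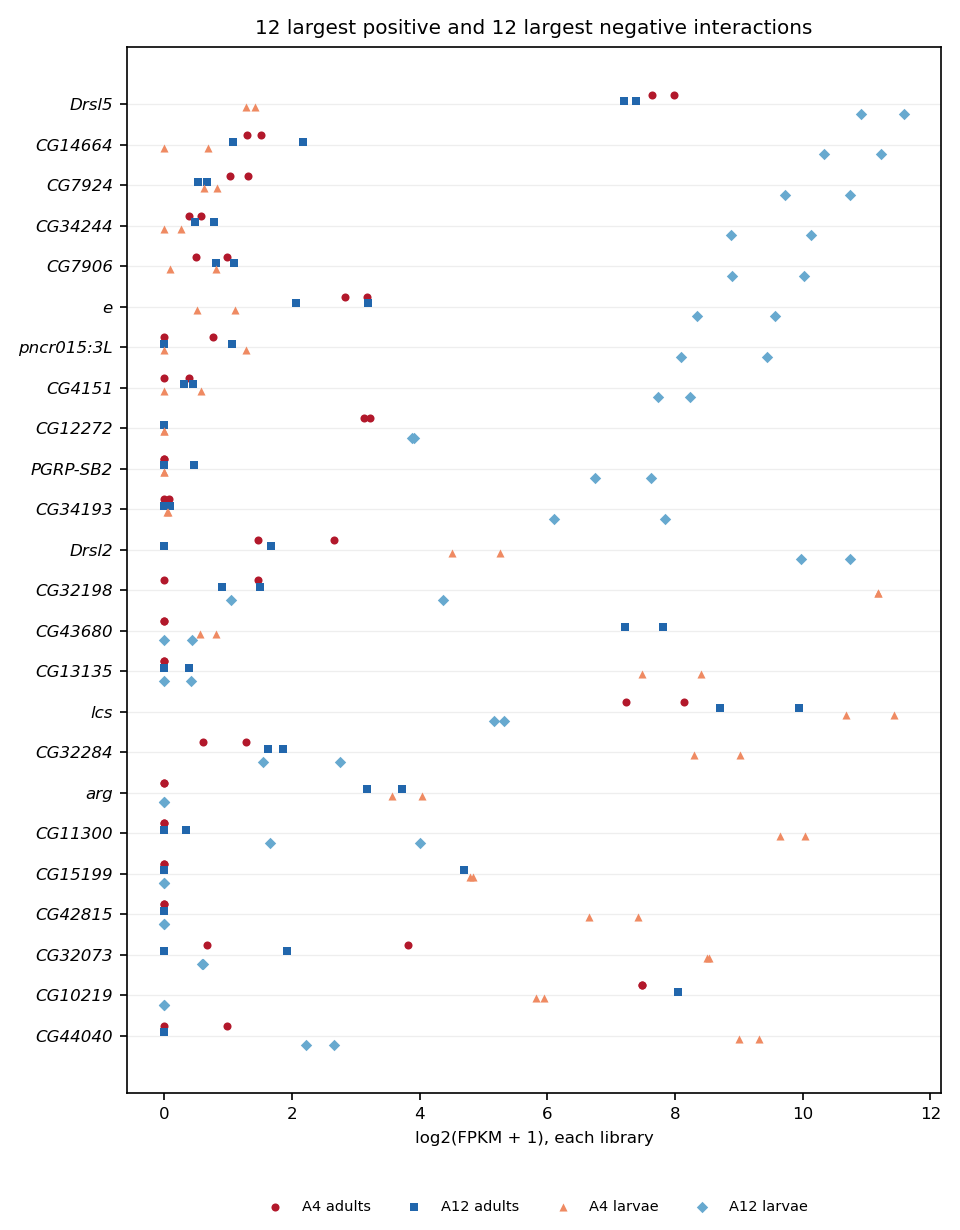
Log2(FPKM + 1) in each of the 8 libraries for the 12 largest positive interactions (from Drsl5 down to Drsl2) and the 12 largest negative ones (from CG32198 down to CG44040), with red circles for A4 adults, blue squares for A12 adults, orange triangles for A4 larvae and light blue diamonds for A12 larvae. Among the positive genes the diamonds lie far to the right, as for Drsl5 at 3068 and 1930 FPKM, and among most of the negative genes the triangles do, as for CG32198 at 2308 and 2307 FPKM.

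The second pattern, high in A4 larvae, led the negative interactions. CG32198 (3L 18520076 to 18520545) had 0 and 1.77 FPKM in A4 adults, 1.83 and 0.864 in A12 adults, 2308 and 2307 in A4 larvae and 1.06 and 19.7 in A12 larvae. The A4 larvae stood above all other libraries, while the 2 A12 larval libraries differed from each other by more than any other pair, and the interaction was -9.35 ± 1.53 (adjusted p = 0.01104). CG13135 (2L 10122129 to 10122771) had 339 and 178 FPKM in A4 larvae and CG42815 (3L 17784179 to 17784586) 99.5 and 169.5 FPKM, and elsewhere both were at or near 0. CG13135 and CG42815 passed the filter on low values only through A4 larvae, which fixed their negative sign. Larger levels were reached by lcs (X 21267754 to 21268326), with 282 and 149 FPKM in A4 adults, 417 and 977 in A12 adults, 1638 and 2763 in A4 larvae and 38.8 and 34.9 in A12 larvae. In lcs the adults of both genotypes were well expressed too, and only the A12 larvae were low (interaction -7.87 ± 0.74, adjusted p = 0.00179). CG11300, CG32284, CG44040 and CG12522 were likewise highest in A4 larvae, CG11300 with 1053 and 801 FPKM, CG32284 with 519.8 and 312, CG44040 with 510.4 and 638 and CG12522 with 103 and 134. They had interactions of -7.62 ± 1.04, -7.74 ± 0.73, -6.66 ± 0.41 and -6.22 ± 0.25. CG32073 (3L 11100108 to 11100476), a neighbour of CG12522, had 362 and 370.2 FPKM in A4 larvae, and its call was lost without A12 adults 1, A4 larvae 1, A4 larvae 2 or A12 larvae 1. CG15199 had 27.4 and 26.5 FPKM in A4 larvae, and in A12 adults it had 0 and 24.96 FPKM. Its call was lost without any 1 of the A4 adult, A4 larval and A12 larval libraries.

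The third pattern, low in A12 larvae alone, included genes that most cells use. CG10219 (3R 19585205 to 19586322) is SdhD in RefSeq, the gene of a membrane subunit of succinate dehydrogenase. It had 178 and 178 FPKM in A4 adults, 262 and 263 in A12 adults, 60.7 and 55.8 in A4 larvae and 0 and 0 in A12 larvae. It was thus listed at 0 in both A12 larval libraries and abundant in the other 3 groups, whose adult pairs were nearly identical, with an interaction of -6.87 ± 0.24 (adjusted p = 0.000137). Its model overlaps that of Plip, which was listed at 0 in all 8 libraries. In the same way CG3814 (Lfg in RefSeq, 2R 8762669 to 8764471), a gene of the second pattern, was listed at 0 in 6 libraries and at 75.6 and 69.9 FPKM in A4 larvae. CG3814 passed the filter on low values only through A4 larvae, which fixed its negative sign. A listed 0 in files without counts can be a failed estimate, so absence of the RNA is not shown. Of the genes with an interaction 262 (17.4%) had a 0 in at least 1 library, against 11.7% of those tested. In 187 a whole group was listed at 0 while another averaged at least 5 FPKM, a count that was not made over all tested genes. Of the 187 models 120 overlapped another one, a larger share than the 43.7% of all tested models and the 37.7% of models with an interaction. Differences against a listed 0 depend on the pseudocount of 1 and are no bound on a fold change.

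Lists of genes by function are given next, and their counts stand against the 15.6% of all tested genes that had an interaction. The Eig71E genes encode small secreted proteins made by the salivary gland at the end of larval life. Of 10 such genes, 5 were below a mean of 1 FPKM and were not tested. The 5 that were tested reached this filter only through their level in A12 larvae, so that a positive interaction was fixed by the choice of genes, and their values are given as a description. Eig71Ea (3L 15642226 to 15642761) had 0 and 0 FPKM in A4 adults, 0 and 0 in A12 adults, 0.325 and 0.469 in A4 larvae and 69.6 and 57.2 in A12 larvae. Eig71Eb had 24.6 and 18.8 FPKM in A12 larvae and Eig71Ec 35.8 and 11.9, against at most 0.22 FPKM in A4 larvae and 0 in every adult library. The 3 genes were thus listed at 0 in adults of both genotypes and were near 0 in A4 larvae. Their interactions were 5.10 ± 0.25, 3.92 ± 0.32 and 3.79 ± 0.56 (adjusted p = 0.000212, 0.00118 and 0.00798).

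Of 17 tested ecdysone receptor and early regulator genes, 2 were positive, none was negative and the median was 0.57, or 0.995 without centring. These were Eip78C (3L 21219709 to 21259603), a nuclear receptor gene, with 0.496 and 0.494 FPKM in A4 adults, 0.454 and 0.693 in A12 adults, 0.487 and 0.347 in A4 larvae and 38.8 and 13.3 in A12 larvae, and Eip93F (3R 17774836 to 17840261), a transcription factor gene of metamorphosis. The levels of Eip93F were 7.08 and 7.77 FPKM in A4 adults, 7.35 and 5.19 in A12 adults, 0.156 and 0.195 in A4 larvae and 3.85 and 2.11 in A12 larvae. Eip78C was high in A12 larvae alone, while Eip93F was lowest in A4 larvae, and the interactions were 3.58 ± 0.56 and 1.53 ± 0.27 (adjusted p = 0.00936 and 0.01403). Eip78C stood below 1 FPKM in all other groups and passed the filter on low values only through A12 larvae. Its positive sign follows from that choice, and its call is a description. The call of Eip93F was lost without A4 adults 2, and without A12 larvae 2 the list had 4 positive genes. Hr4, another nuclear receptor gene, was listed at 0 in all libraries but those of A12 larvae, at 6.42 and 2.23 FPKM, and did not pass (adjusted p = 0.0531).

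Of 14 tested effector genes, which act further down in the ecdysone response, 5 were positive and 1 negative, with a median of 0.45. That median was 0.29 without A12 adults 1, 0.73 without A4 larvae 1 and 0.88 without centring. ImpE2 (3L 3510974 to 3512681), an ecdysone-induced gene of imaginal discs, had 0.0658 and 0.07897 FPKM in A4 adults, 0 and 0 in A12 adults, 20.98 and 27.6 in A4 larvae and 355 and 202 in A12 larvae. Both larval groups exceeded the adults and A12 larvae exceeded A4 larvae, with an interaction of 3.10 ± 0.31 (adjusted p = 0.00199). ImpE3 (3R 3854175 to 3855268) had 46.4 and 38.1 FPKM in A12 larvae and 0.8515 to 2.53 in the other groups (interaction 3.24 ± 0.23, adjusted p = 0.000616). Hsp23 (3L 9374982 to 9375865), a small heat shock protein gene that ecdysone also induces, had 21.9 and 14.5 FPKM in A4 adults, 15.2 and 11.9 in A12 adults, 587 and 702 in A4 larvae and 3712 and 3539.5 in A12 larvae, and its interaction was 2.45 ± 0.31 (adjusted p = 0.00451). The positive count was 3 without A4 adults 1, A4 adults 2 or A4 larvae 1, and 2 were negative without A12 larvae 2. Of 5 tested genes of ecdysone synthesis 1 was negative, with a list median of 0.28 that was -0.13 with a mean of at least 5 FPKM required. It was shd (3L 14607558 to 14615305), whose enzyme converts ecdysone to its active form, and it had 1.43 and 1.43 FPKM in A4 adults, 4.04 and 3.43 in A12 adults, 31.2 and 25.1 in A4 larvae and 26.9 and 27.1 in A12 larvae. A4 adults were the lowest group, the larval groups overlapped, and the interaction of -1.43 ± 0.25 (adjusted p = 0.0126) was lost without either A4 adult library.

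Glue and pre-glue genes encode the secretion that fixes the pupa to its support. Of 10 tested, none was positive and 3 were negative, while the median of 0.33 lay on the other side of 0. The 3 were the neighbouring pre-glue genes ng1, ng2 and ng3 on the X chromosome, which the salivary gland expresses before the glue genes. ng1 (X 3136445 to 3136967) had 0 and 0 FPKM in A4 adults, 0.342 and 0.323 in A12 adults, 168 and 184 in A4 larvae and 4.402 and 9.399 in A12 larvae. ng2 had 60.1 and 88.6 FPKM in A4 larvae against 0.914 and 2.58 in A12 larvae, and ng3 1040.2 and 1485 against 135 and 224. All 3 were highest in A4 larvae and nearly absent from adults, with interactions of -5.40 ± 0.51, -5.25 ± 0.54 and -3.10 ± 0.50 (adjusted p = 0.00186, 0.00236 and 0.0105). Of these genes ng2 passed the filter on low values only through A4 larvae, which fixed its negative sign. The 3 models overlap that of dnc, the call of ng3 was lost with a pseudocount of 0.1, and without A4 larvae 1 or A12 larvae 1, or with either other scaling, 1 or 2 glue genes were positive. Without overlapping models no glue gene was negative, and the list's median was -0.03 without A4 larvae 2 and -0.40 without A12 larvae 2. Summed over 11 glue and pre-glue genes, larval libraries held 17040 and 17680 FPKM in A4 and 28090 and 40790 FPKM in A12.

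Cuticle genes went both ways. Of 49 tested genes of larval and pupal cuticle proteins 6 were positive and 14 negative, with a median of -0.996. Lcp65Ag3 (3L 6123486 to 6124089), 1 of several near-identical larval cuticle genes whose reads may be split between copies, had 0.391 and 0.494 FPKM in A4 adults, 0.361 and 0.347 in A12 adults, 29.2 and 38.6 in A4 larvae and 0.374 and 0.374 in A12 larvae. Cpr47Eg (2R 7165461 to 7165946) had 61.98 and 65.2 FPKM in A4 larvae and was at 0 in every adult library. Both were thus genes of A4 larvae, with interactions of -4.99 ± 0.30 and -6.15 ± 0.41 (adjusted p = 0.000387 and 0.000573). Both passed the filter on low values only through A4 larvae, which fixed their negative sign. In contrast Cpr49Ac (2R 8274472 to 8277562) had 0.982 and 1.02 FPKM in A4 adults, 0.531 and 0.545 in A12 adults, 305 and 271 in A4 larvae and 2393 and 1915 in A12 larvae, so that A12 larvae were the highest group (interaction 2.84 ± 0.23, adjusted p = 0.00106). The positive count of this list was 3 without A4 adults 1, A4 adults 2, A4 larvae 2, A12 larvae 1 or A12 larvae 2, and the negative count was 6 without genes listed at 0. The median was -0.57 without A12 larvae 1, -0.58 without A12 adults 2, -0.57 without centring, -0.55 after quantile normalization and -2.59 with a mean of at least 5 FPKM required.

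Tanning genes, which cross-link and colour the cuticle, gave 6 positive and 3 negative calls among 22 tested, with a median of 0.29. Beside e they included yellow-c (2L 15035471 to 15037842), with 19.2 and 23.6 FPKM in A4 adults, 16.7 and 35.6 in A12 adults, 23.7 and 19.9 in A4 larvae and 829 and 511 in A12 larvae. The adults and the A4 larvae overlapped at about the same level and the A12 larvae were far above them (interaction 4.22 ± 0.58, adjusted p = 0.00597). yellow-f2 (3R 8819117 to 8820869), of an enzyme in melanin synthesis, had 12.4 and 11.2 FPKM in A4 adults, 11.1 and 15.97 in A12 adults, 4.91 and 4.51 in A4 larvae and 0.306 and 0.445 in A12 larvae. Here the A12 larvae were the lowest group, and the interaction was -2.65 ± 0.37 (adjusted p = 0.00656). Without A4 adults 2 the calls were 3 and 1, and without A12 adults 1 the median was -0.30. Of 35 tested genes that build or remodel chitin, 3 were positive and 8 negative, with a median of -0.98. The chitinase gene Cht11 had 9.96 and 10.4 FPKM in A4 adults, 11.2 and 10.1 in A12 adults, 5.23 and 5.501 in A4 larvae and 26.1 and 20.9 in A12 larvae and a positive interaction of 1.45 ± 0.18 (adjusted p = 0.00415). The chitin-binding protein genes obst-F and obst-H were highest in A4 larvae. obst-F had 71.1 and 99.4 FPKM in A4 larvae against 9.74 and 11.4 in A12 larvae, and obst-H had 31.4 and 36.1 FPKM in A4 larvae against 16.4 and 11.3 in A12 larvae, with interactions of -3.71 ± 0.50 and -1.74 ± 0.26, both lost with a pseudocount of 0.1. The negative count of the chitin list was 2 to 4 when either A4 adult library, A12 adults 2, either A4 larval library or A12 larvae 1 was left out. The median of that list was -0.56 without A4 adults 1, -0.59 without A12 adults 2 and -0.55 with either other scaling.

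**Figure D3:**
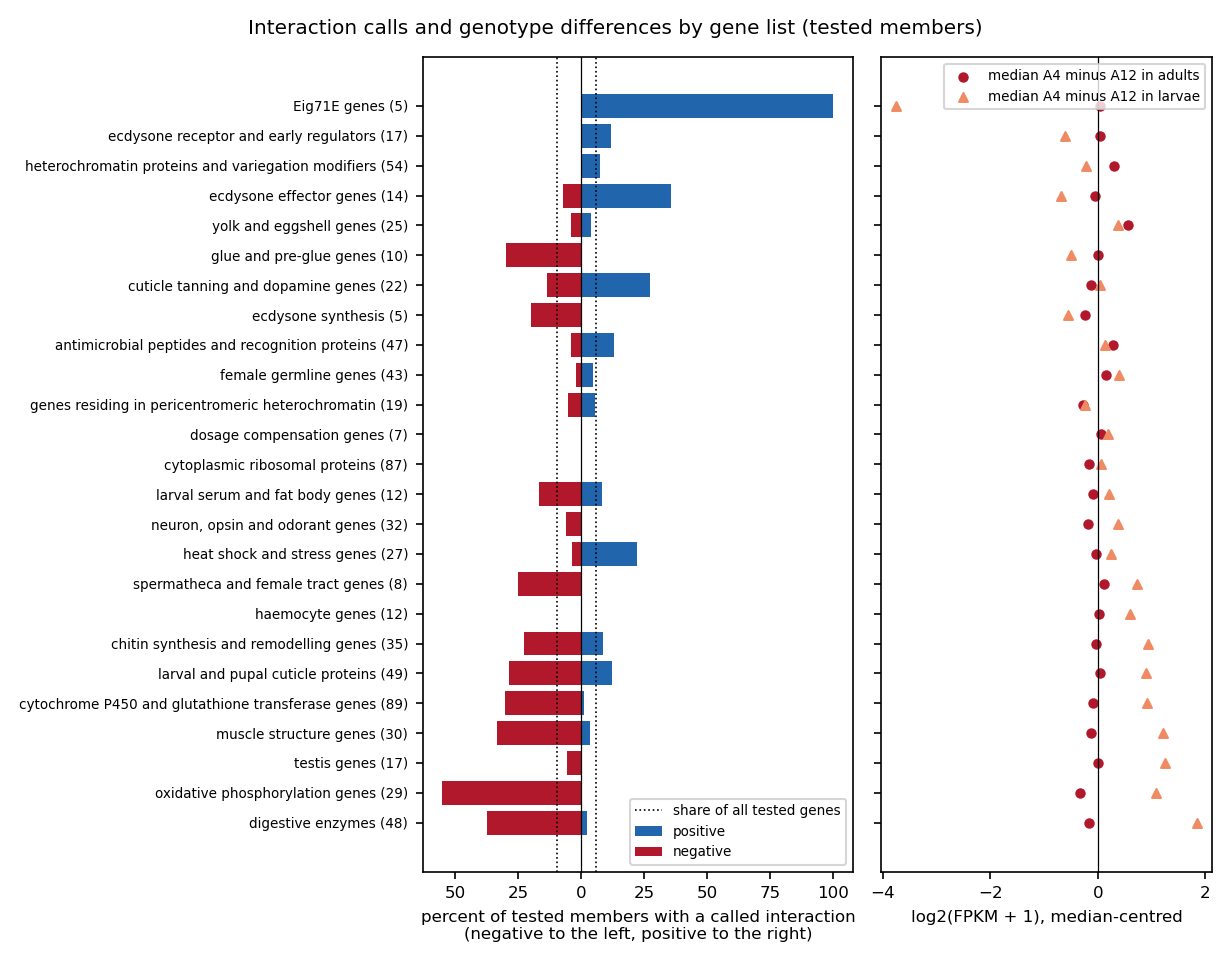
Left, the percent of tested members of each list with a positive (blue, to the right) or negative (red, to the left) interaction, with dotted lines at 5.92% and 9.65%, the shares of all tested genes, and the number tested in brackets; the male accessory gland list, with 4 tested, is not drawn. Right, the median A4 minus A12 difference of the same genes on median-centred log2(FPKM + 1) in adults (red circles) and larvae (orange triangles); the adult medians lie between -0.33 and 0.57, and the larval median reaches 1.85 for digestive enzymes, while the 5 tested Eig71E genes passed the filter on low values only through A12 larvae.

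Of 48 tested digestive enzyme genes, 18 were negative and 1 was positive, the median was -2.26, and the median difference was -0.16 in adults and 1.85 in larvae. The trypsin gene lambdaTry (2R 7224345 to 7225296) had 84.9 and 78.6 FPKM in A4 adults, 59.5 and 87.9 in A12 adults, 32.1 and 42.9 in A4 larvae and 0.223 and 1.27 in A12 larvae. The adult groups overlapped at the highest level and the A12 larvae were nearly without it (interaction -4.77 ± 0.58, adjusted p = 0.00416). thetaTry (2R 7229219 to 7230265), of the same trypsin cluster, had 54.2 and 57.4 FPKM in A4 adults, 125 and 129.7 in A12 adults, 125 and 173 in A4 larvae and 20.2 and 30.6 in A12 larvae. In thetaTry A12 was the higher genotype in adults and A4 in larvae, though the adult difference of -1.14 did not pass (adjusted p = 0.203), and the interaction was -4.11 ± 0.43 (adjusted p = 0.00236). The positive gene was LysX, described below. Trypsin and lysozyme genes have close paralogs between which reads may be split. The negative count was 8 or 9 without A4 adults 1, A4 adults 2, A12 adults 2 or A4 larvae 2, and 31 without A12 larvae 2. The median was -1.45 without A12 larvae 1 and at most -1.73 under the 3 scalings.

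Enzymes of detoxification act on plant toxins and on the animal's own steroids. Of 89 tested genes of cytochrome P450 enzymes and glutathione transferases 27 were negative and 1 positive, and the other 61 did not pass. The median was -1.02, or -0.60 without centring. Cyp9b1 (2R 3015343 to 3017313) had 3.19 and 3.29 FPKM in A4 adults, 3.44 and 4.94 in A12 adults, 7.62 and 6.504 in A4 larvae and 0 and 0 in A12 larvae. Cyp6w1 (2R 2061189 to 2062936) had 9.07 and 13.8 FPKM in A4 adults, 13.9 and 16.3 in A12 adults, 7.08 and 6.93 in A4 larvae and 0.165 and 0.203 in A12 larvae. Both were low in A12 larvae alone, and their interactions were -3.71 ± 0.36 and -3.57 ± 0.37 (adjusted p = 0.00194 and 0.00236). Cyp9b1 overlaps esn, whose own level was highest in A12 larvae. Cyp4ac1 (2L 5264001 to 5265899) had 6.26 and 7.03 FPKM in A4 adults, 11.7 and 10.6 in A12 adults, 10.8 and 11.5 in A4 larvae and 6.46 and 5.77 in A12 larvae. Its A12 adults and A4 larvae formed the upper level and its A4 adults and A12 larvae the lower one (interaction -1.87 ± 0.20, adjusted p = 0.002499), although neither of these pairs was compared by a test. The negative count was 14 to 17 without A4 adults 1, A4 adults 2, A12 adults 2 or A4 larvae 2.

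Muscle structure genes gave 10 negative calls and 1 positive among 30 tested, with a median of -1.30. TpnC25D (2L 5218255 to 5219055), a troponin C gene, had 101 and 85.9 FPKM in A4 adults, 75.3 and 182 in A12 adults, 45.8 and 55.6 in A4 larvae and 0 and 0 in A12 larvae. The adult groups overlapped, and A12 larvae were listed at 0. TpnC47D (2R 7161540 to 7162796), another troponin C gene, had 9.89 and 11.01 FPKM in A4 adults, 12.1 and 8.96 in A12 adults, 83.1 and 61.5 in A4 larvae and 2.14 and 4.78 in A12 larvae, which makes it a gene of A4 larvae. wupA (X 17999601 to 18010858), which encodes troponin I, had 147 and 180.4 FPKM in A4 adults, 289 and 280.3 in A12 adults, 298 and 274 in A4 larvae and 144 and 159 in A12 larvae, and like Cyp4ac1 it had its A12 adults and A4 larvae high. The interactions of the 3 were -6.44 ± 0.61, -4.52 ± 0.53 and -2.14 ± 0.32 (adjusted p = 0.00191, 0.00358 and 0.00816). TpnC25D overlaps the model of tkv. The median was -0.69 after quantile normalization. The negative count was 6 after quantile normalization and 4 to 6 when any library but A12 adults 1 and A12 larvae 2 was left out.

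In oxidative phosphorylation, the chain of mitochondrial complexes that makes ATP, all 29 tested genes had an interaction below 0, and 16 were called negative and none positive. The median was -1.36 and the range -1.94 to -0.69, and the median difference was -0.33 in adults and 1.09 in larvae. SdhA (2R 15279368 to 15283477), for the catalytic subunit of succinate dehydrogenase, had 234 and 254.9 FPKM in A4 adults, 299 and 319 in A12 adults, 90.7 and 87.7 in A4 larvae and 45.01 and 46.7 in A12 larvae. ND23 (3R 11661770 to 11662839), for a subunit of complex I, had 171 and 168 FPKM in A4 adults, 216 and 233 in A12 adults, 42.96 and 42.9 in A4 larvae and 29.5 and 21.9 in A12 larvae. In both genes the A4 adults lay below the A12 adults and the A4 larvae above the A12 larvae, with no overlap. The adult differences of -0.30 and -0.37 did not pass (adjusted p = 0.5495 and 0.397), while the interactions of -1.71 ± 0.28 and -1.56 ± 0.24 did (adjusted p = 0.0111 and 0.00902). sesB (X 10674926 to 10680940), the ADP/ATP translocase of the inner membrane, had 1065 and 1046 FPKM in A4 adults, 2228 and 1921 in A12 adults, 249.7 and 232 in A4 larvae and 216 and 128 in A12 larvae and an interaction of -1.93 ± 0.32 (adjusted p = 0.0114), which did not pass after quantile normalization. The negative count was 9 without centring and 10 after quantile normalization, with medians of -0.93 and -0.87. It was 3 without A4 adults 1 or A4 adults 2, 5 without A4 larvae 1 or A12 larvae 1, 7 without A12 adults 2 and 8 without A4 larvae 2.

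Of 47 tested genes of antimicrobial peptides and recognition proteins, which act in the innate immune response, 6 were positive and 2 negative. These make 17.0% of the list, near the 15.6% of all tested genes. The median was 0.22, and the Drosomycin relatives and PGRP-SB2 above were among the positive ones. The sign of PGRP-SB2 was fixed by the filter on low values, as said above. Without genes listed at 0 a single positive call was left, and the median ranged from -0.20 without A4 larvae 2 to 0.96 without A12 larvae 2. The 2 negative calls were lost without A4 adults 1, A4 adults 2, A12 adults 2 or A12 larvae 1, and 1 was left without A4 larvae 1 or A4 larvae 2. Of 27 tested heat shock and stress genes 6 were positive and 1 negative. Their median was -0.49, and it was -0.06 without centring, -0.24 after quantile normalization, -0.30 without A4 adults 2 and -0.01 with a mean of at least 5 FPKM required. MtnC (3R 16186030 to 16186356), a metallothionein gene that binds heavy metals, had 372 and 592 FPKM in A4 adults, 834 and 1178 in A12 adults, 3.12 and 3.35 in A4 larvae and 712 and 821 in A12 larvae. Its A4 larvae lay far below every other library, and the interaction was 5.997 ± 0.49 (adjusted p = 0.00117). Hsp67Bc (3L 9364611 to 9365597), a small heat shock protein gene, had 0.772 and 0.355 FPKM in A4 adults, 0.876 and 1.06 in A12 adults, 25.7 and 24.6 in A4 larvae and 269 and 219 in A12 larvae. It was larval, with A12 above A4, and its interaction was 2.45 ± 0.25 (adjusted p = 0.00236). The negative call of this list was lost without any 1 library except A12 adults 1, where there were 2.

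In the fat body list, of storage proteins and lipid carriers, 1 of 12 tested genes was positive and 2 were negative, with a median of -0.38. This median was -0.77 without A12 adults 1, 0.015 without A12 adults 2 and 0.046 without centring. The positive gene was NLaz, a lipocalin gene, with 102 and 112 FPKM in A4 adults, 98.5 and 134 in A12 adults, 5.599 and 15.1 in A4 larvae and 144 and 83.8 in A12 larvae, so that only A4 larvae were low (interaction 2.90 ± 0.60, adjusted p = 0.0228). That call was lost without A4 adults 1, A4 adults 2, A12 adults 1 or A12 larvae 1. The negative genes were Lip4, a lipase gene, and Rfabg, the gene of the lipid carrier apolipophorin, with interactions of -1.19 ± 0.23 and -1.54 ± 0.38, and neither passed without centring. Both were lost without A4 adults 1, A4 adults 2, A12 adults 2 or A4 larvae 1, and Rfabg also without A12 adults 1, A12 larvae 1 or A12 larvae 2.

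Of 25 tested yolk and eggshell genes 1 was positive and 1 negative (8%, against 15.6% of all tested genes), and 5 were positive after quantile normalization. The median was 0.36, and it was -0.05 without A4 adults 1, 0.11 without A12 adults 1, 0.78 without centring and 0.99 after quantile normalization. Of 43 female germline genes 2 were positive and 1 negative (6.98%). Their median of -0.09 turned to 0.34 without centring, to 0.43 after quantile normalization and to 0.08 without A12 adults 1. Cp19 (3L 8722965 to 8723704), a chorion protein gene, had 2022 and 1135 FPKM in A4 adults, 432 and 350.2 in A12 adults, 0 and 0 in A4 larvae and 1.93 and 0.271 in A12 larvae. Its A4 adults exceeded its A12 adults, but the adult difference of 1.99 did not pass (adjusted p = 0.101), and the interaction of 2.48 ± 0.50 (adjusted p = 0.0211) was lost without A4 adults 1, either A12 adult library or either A4 larval library. The negative gene, pip, was listed at 0 in all adult libraries and had 13.6 and 17.4 FPKM in A4 larvae against 4.501 and 4.38 in A12 larvae (interaction -2.02 ± 0.28, adjusted p = 0.00655). It is known for its part in eggshell patterning and for expression in the larval salivary gland. The germline genes tral, polo and nos had interactions of 1.40 ± 0.27, 0.89 ± 0.20 and -1.05 ± 0.24, and each was lost when either A4 adult library was left out. The call of polo was lost when any 1 library was left out, and that of nos under both other scalings. Leaving out A4 larvae 1, A4 larvae 2 or A12 larvae 1 ended the calls of tral and nos, and leaving out A12 adults 1 that of nos. Of 8 tested spermatheca and female tract genes 2 were negative, with a median of -0.77 (-0.38 without A12 adults 2 and -1.19 without A12 adults 1), namely Send1, described below, and Fst, which is known as a cold-response gene and not for a role in the female tract. Fst had 539 and 763 FPKM in A4 larvae against 384 and 334 in A12 larvae, and its call (-1.26 ± 0.29, adjusted p = 0.0303) was lost without centring, after quantile normalization and without either A4 adult library, A12 adults 2, A4 larvae 2 or either A12 larval library.

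Of 54 tested genes of heterochromatin proteins and variegation modifiers, the list nearest to variegation, 4 were positive and none negative (7.41%, against 15.6% of all tested genes). The median was 0.54, or 0.96 without centring, and 48 of the 54 values lay above 0. The median difference was 0.31 in adults and -0.21 in larvae. Hmt4-20 (X 542516 to 550075), a histone H4 methyltransferase gene, had 16.7 and 16.1 FPKM in A4 adults, 11.6 and 8.097 in A12 adults, 4.21 and 3.27 in A4 larvae and 10.2 and 6.35 in A12 larvae. XNP (3R 21303590 to 21308556), a chromatin remodeller gene, had 26.6 and 29.7 FPKM in A4 adults, 23.8 and 15.6 in A12 adults, 8.81 and 8.46 in A4 larvae and 17.7 and 16.1 in A12 larvae. In both genes A4 was the higher genotype in adults and the lower one in larvae without overlap, yet neither the adult nor the larval difference passed alone. The interactions were 1.22 ± 0.27 and 0.99 ± 0.25 (adjusted p = 0.0292 and 0.0403), and that of the short mod(mdg4) model at 3R 17186110 to 17187860 was 1.34 ± 0.33 (adjusted p = 0.0389), which overlaps a longer model of the same gene. The fourth gene was Sce, named here because it completes the count. The positive count was 12 without centring, 7 after quantile normalization and 2 with replicate number as a block. It was 0 without A4 adults 2, A12 adults 2 or A12 larvae 1, 1 without A4 adults 1, A4 larvae 1 or A12 larvae 2, and 2 without A12 adults 1. The gene of HP1a, the protein that binds methylated histone H3 in heterochromatin, had 64.6 and 47.8 FPKM in A4 adults, 67.7 and 53.6 in A12 adults, 24.1 and 33.8 in A4 larvae and 60.7 and 37.9 in A12 larvae. Its genotypes overlapped in adults, its A4 larvae lay below its A12 larvae before centring, and its interaction of 0.19 ± 0.32 did not pass (adjusted p = 0.7196).

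Genes that lie within pericentromeric heterochromatin had 1 positive and 1 negative call among 19 tested (10.5%, against 15.6% of all tested genes). Their median of -0.13 was 0.30 without centring, 0.08 after quantile normalization, 0.02 without A12 adults 1 and 0.09 without A12 larvae 2. Cht3 (2L 22892306 to 22918647), a chitinase gene, had 0.439 and 0.463 FPKM in A4 adults, 0.625 and 0.422 in A12 adults, 45.5 and 42.3 in A4 larvae and 169 and 119.8 in A12 larvae. It was larval in both genotypes, with A12 above A4, and its interaction was 1.18 ± 0.20 (adjusted p = 0.0122), lost without A4 adults 2. Snap25, a gene of synaptic vesicle fusion, had an interaction of -1.32 ± 0.34 (adjusted p = 0.0476) that passed in neither of the other scalings and was lost without any 1 library except A12 adults 1. The gene lt, the textbook heterochromatic gene of chromosome 2, had 11.2 and 12.03 FPKM in A4 adults, 18.5 and 14.5 in A12 adults, 6.05 and 6.87 in A4 larvae and 12.4 and 8.74 in A12 larvae. A4 was the lower genotype at both stages, with differences of -0.43 in adults and -0.16 in larvae after centring, neither of which passed (adjusted p = 0.278 and 0.458), and the interaction of -0.27 ± 0.20 did not pass (adjusted p = 0.399). For rl, of the MAP kinase, the interaction was -0.33 ± 0.23 (adjusted p = 0.365). Both values turned positive without centring, at 0.16 and 0.09. The eye colour gene w, a common reporter of variegation, had 2.84 and 2.39 FPKM in A4 adults, 2.42 and 2.297 in A12 adults, 3.04 and 3.21 in A4 larvae and 6.35 and 5.07 in A12 larvae and an interaction of 0.38 ± 0.21 (adjusted p = 0.277). None of the 87 tested genes of cytoplasmic ribosomal proteins was called, although 1 was negative without A12 adults 2 or A4 larvae 1, and their median was -0.24, against 0.18 without centring and 0.35 after quantile normalization, and it ranged from -0.47 without A4 adults 1 to -0.02 without A4 adults 2.

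Markers of other cell types and of male tissues were counted in the same way. Of 32 tested neuron, opsin and odorant genes 2 were negative (6.25%, against 15.6% of all tested genes), Gad1 and Obp56a, with interactions of -1.60 ± 0.33 and -1.93 ± 0.44. The median of that list was -0.47, against -0.04 and 0.02 without centring and after quantile normalization. Neither neuron gene was left without A4 adults 1, A4 adults 2 or A4 larvae 1, and 1 was left without A12 adults 2, A4 larvae 2 or A12 larvae 1. The 12 tested haemocyte genes gave no call, except 3 negative without A12 larvae 2, 1 positive without centring and 1 negative with replicate number as a block or without genes listed at 0. Their median was -0.83, or -0.41 without centring. Of 17 tested testis genes 1 was negative (5.88%), bol (-1.31 ± 0.27), which is also expressed in the female germline, and the median was -1.31. Without A4 larvae 2 the testis median was -0.46 and 1 gene was positive, and without A4 larvae 1 there were 9 negative genes. Summed FPKM of the 55 testis genes was 131 and 114 in A4 adults, 156 and 114 in A12 adults, 40.1 and 193 in A4 larvae and 72.8 and 52.0 in A12 larvae. Of 7 tested dosage compensation genes none was called, except 1 negative without A4 larvae 1, with a median of -0.16. The male-specific RNA roX1 had 2.07 and 12.4 FPKM in A4 larvae and 3.04 and 1.21 in A12 larvae. For roX2 these were 0.338 and 34.9 FPKM in A4 larvae and 4.65 and 0.277 in A12 larvae, and the interaction of roX2, -1.76 ± 1.98, turned to 0.57 without A4 larvae 2. In the male accessory gland list 2 of 4 tested genes were negative, the esterase gene Est-6 and PebIII, with a median of -0.91. Est-6 had 46.1 and 44.5 FPKM in A4 adults, 71.9 and 69.5 in A12 adults, 1.99 and 3.09 in A4 larvae and 0.5095 and 0.657 in A12 larvae and PebIII had 972 and 831 FPKM in A4 adults and 819.9 and 1232 FPKM in A12 adults, so that both were well expressed in libraries labelled female. The call of PebIII was lost without any 1 library except A12 adults 1 and A12 larvae 2, and that of bol without either A4 adult library, A12 adults 1, A4 larvae 2 or A12 larvae 1. How far any of these markers carry the interactions of other genes was not tested beyond the counts without a library given above.

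In 8 genes A4 and A12 differed at both stages but in opposite directions, 2 with a positive and 6 with a negative interaction. Oat (3L 19640380 to 19642951), the gene of ornithine aminotransferase, a mitochondrial enzyme of amino acid metabolism, had 29.7 and 45.2 FPKM in A4 adults, 4.71 and 5.29 in A12 adults, 61.3 and 73.7 in A4 larvae and 228 and 280.1 in A12 larvae. A4 was the higher genotype in adults by 2.68 (adjusted p = 0.0118) and the lower one in larvae, with a difference of -1.44 (adjusted p = 0.0141), and no 2 groups overlapped. Its interaction was 4.12 ± 0.41 (adjusted p = 0.00211). CG9682 (3R 26076650 to 26078552) and CG18404 (3R 26078904 to 26079819) lie next to each other. CG9682 had 32.1 and 35.8 FPKM in A4 adults, 162 and 182 in A12 adults, 481 and 514 in A4 larvae and 168 and 209 in A12 larvae. CG18404 had 109.8 and 94.5 FPKM in A4 adults, 343 and 304 in A12 adults, 7.55 and 12.8 in A4 larvae and 1.67 and 0.729 in A12 larvae. Both were lower in A4 adults than in A12 adults and higher in A4 larvae than in A12 larvae, while CG18404 was an adult gene and CG9682 was highest in A4 larvae. Their interactions were -4.13 ± 0.35 and -4.42 ± 0.33 (adjusted p = 0.00132 and 0.000836).

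A further 3 were mainly adult genes with a lower level in A4 adults. CG9836 (3R 4648571 to 4649899), IscU in RefSeq and the scaffold on which iron-sulphur clusters are built, had 97.5 and 90.6 FPKM in A4 adults, 243 and 199 in A12 adults, 31.8 and 35.4 in A4 larvae and 34.2 and 24.9 in A12 larvae. CG14615 (X 21849580 to 21851327) had 10.6 and 9.41 FPKM in A4 adults, 24.6 and 25.3 in A12 adults, 1.92 and 2.17 in A4 larvae and 1.16 and 1.01 in A12 larvae. CG9921 (X 16225292 to 16227427) had 20.1 and 17.2 FPKM in A4 adults, 55.2 and 39.1 in A12 adults, 7.75 and 8.55 in A4 larvae and 8.24 and 4.83 in A12 larvae. The larval libraries of CG9836 and CG9921 overlapped between genotypes before centring, and after it the larval differences were 0.65 and 0.78 (adjusted p = 0.0196 and 0.0235). The interactions of the 3 were -1.84 ± 0.21, -2.21 ± 0.21 and -2.02 ± 0.26 (adjusted p = 0.00307, 0.00194 and 0.00478).

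The last 2 switched between listed zeros. CG12272 (3L 16115102 to 16119152), Strump in RefSeq, had 7.76 and 8.36 FPKM in A4 adults, 0 and 0 in A12 adults, 0 and 0 in A4 larvae and 13.99 and 13.6 in A12 larvae. arg (X 403451 to 422063), the arginase gene, had the reverse, with 0 and 0 FPKM in A4 adults, 12.2 and 8.06 in A12 adults, 10.8 and 15.4 in A4 larvae and 0 and 0 in A12 larvae. Each was thus detected in 1 genotype of adults and in the other genotype of larvae, with interactions of 6.64 ± 0.26 and -7.67 ± 0.31 (both adjusted p = 0.000137). CG12272 overlaps Pgm, whose level ran from 48.4 to 349.9 FPKM, and arg overlaps CG4293 and elav. The part of the overlap in these values was not tested. Without genes that overlap another model, 7 genes had opposite signs, and with single libraries left out the count was as low as 5 without A4 adults 1 or A12 larvae 2 and 4 without A4 adults 2 or A4 larvae 1.

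**Figure D4:**
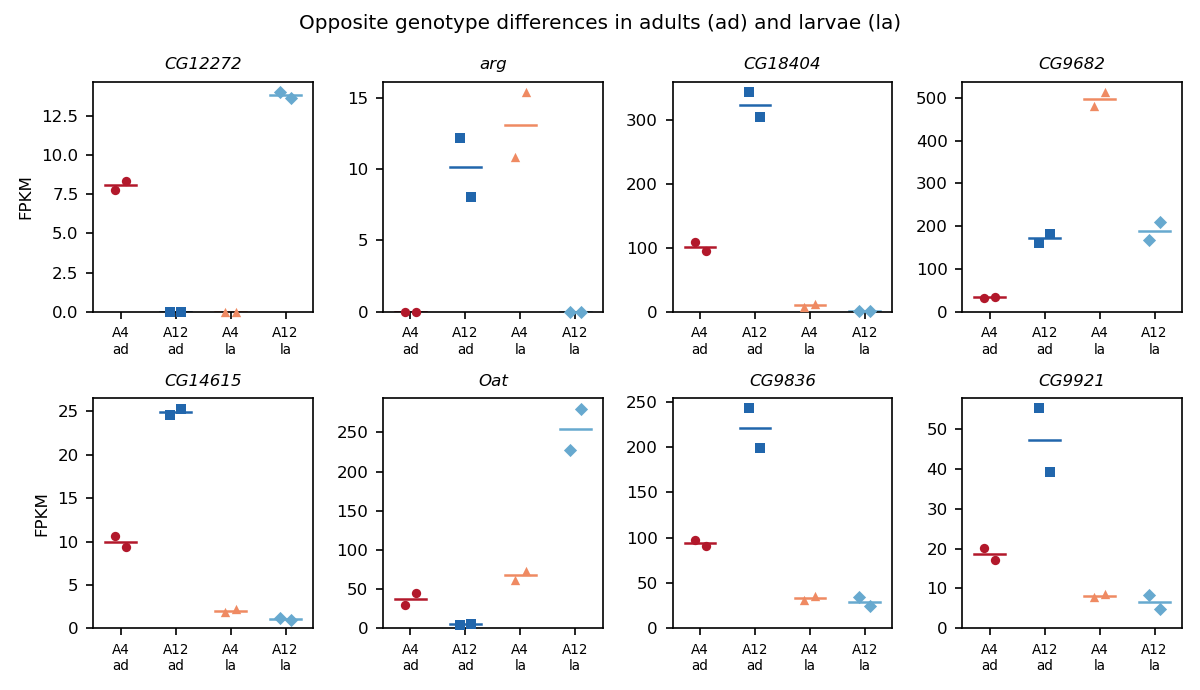
FPKM in each library (points) and group mean (bar) for the 8 genes whose A4 minus A12 difference passed in adults and in larvae with opposite signs; within each panel A4 adults, A12 adults, A4 larvae and A12 larvae run from left to right, and the y axis starts at 0. For Oat the A4 adults at 29.7 and 45.2 FPKM lie above the A12 adults at 4.71 and 5.29, while the A4 larvae at 61.3 and 73.7 lie below the A12 larvae at 228 and 280.1.

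The 34 genes whose difference passed in adults alone were mostly lower in A4 adults, since 27 had a negative interaction. Mcm10 (2L 21179941 to 21182812), which encodes a factor of DNA replication, had 0.901 and 0.761 FPKM in A4 adults, 22.8 and 13.3 in A12 adults, 0.126 and 0.2196 in A4 larvae and 2.05 and 1.06 in A12 larvae. A12 was the higher genotype at both stages without overlap, with differences of -3.30 in adults and -0.64 in larvae, of which the adult one passed (adjusted p = 0.00193 and 0.0929). The interaction was -2.66 ± 0.33 (adjusted p = 0.00423). Outside A12 adults Mcm10 did not exceed 2.05 FPKM, and it passed the filter on low values only through that group. Its negative sign follows from that choice, and its call is a description. Jon65Aii (3L 6045421 to 6046315), of the Jonah family of digestive serine proteases, had 20.2 and 11.3 FPKM in A4 adults, 165 and 209 in A12 adults, 497 and 386 in A4 larvae and 335 and 413 in A12 larvae. The larval libraries of the genotypes overlapped and the A4 adults lay far below the A12 adults (interaction -4.19 ± 0.50, adjusted p = 0.003796). Send1 (2L 2254176 to 2255050), a protease gene of the spermatheca, the organ that stores sperm, had 3.48 and 3.31 FPKM in A4 adults, 20.2 and 34.1 in A12 adults and 0 in all larval libraries (interaction -3.06 ± 0.44, adjusted p = 0.00729).

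CG43090 (X 6093313 to 6093906) had 4.63 and 5.896 FPKM in A4 adults and 50.7 and 40.04 in A12 adults and at most 0.277 in larvae, an interaction of -3.07 ± 0.25 (adjusted p = 0.00117). Much of the rest of this class rested on listed zeros: in 22 of the 34 genes a whole group was at 0 while another averaged at least 5 FPKM. That count was not made over all tested genes. Of the 34 genes 22 overlapped another model, against 43.7% of all tested models. CG43680 (3L 15046098 to 15046451) had 0 and 0 FPKM in A4 adults, 148 and 223 in A12 adults, 0.474 and 0.744 in A4 larvae and 0 and 0.355 in A12 larvae, and Art8 (2L 11009821 to 11011085), of a protein arginine methyltransferase, had 0 and 0 FPKM in A4 adults, 23.8 and 15.2 in A12 adults, 5.097 and 5.96 in A4 larvae and 6.29 and 5.87 in A12 larvae. CG2118 (Mccc1 in RefSeq), CG14701 (Dph3) and CG14040 (senju) were detected in a single group. These were A12 adults for CG2118, at 30.05 and 25.3 FPKM, and for CG14701, at 15.7 and 11.7, and A4 adults for CG14040, at 15.6 and 14.3. Each of these 5 overlaps another model, among them Nup154 for Art8, faf for CG2118 and eIF-3p40 for CG14040. CG43680, CG2118, CG14701 and CG14040 passed the filter on low values only through a single group of adults. That choice fixed the sign of their interactions, and their calls are a description. Without overlapping models, or without genes listed at 0, 12 genes were called in adults alone, with a mean of at least 5 FPKM required 20 were, and without A12 adults 1 there were 63.

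**Figure D5:**
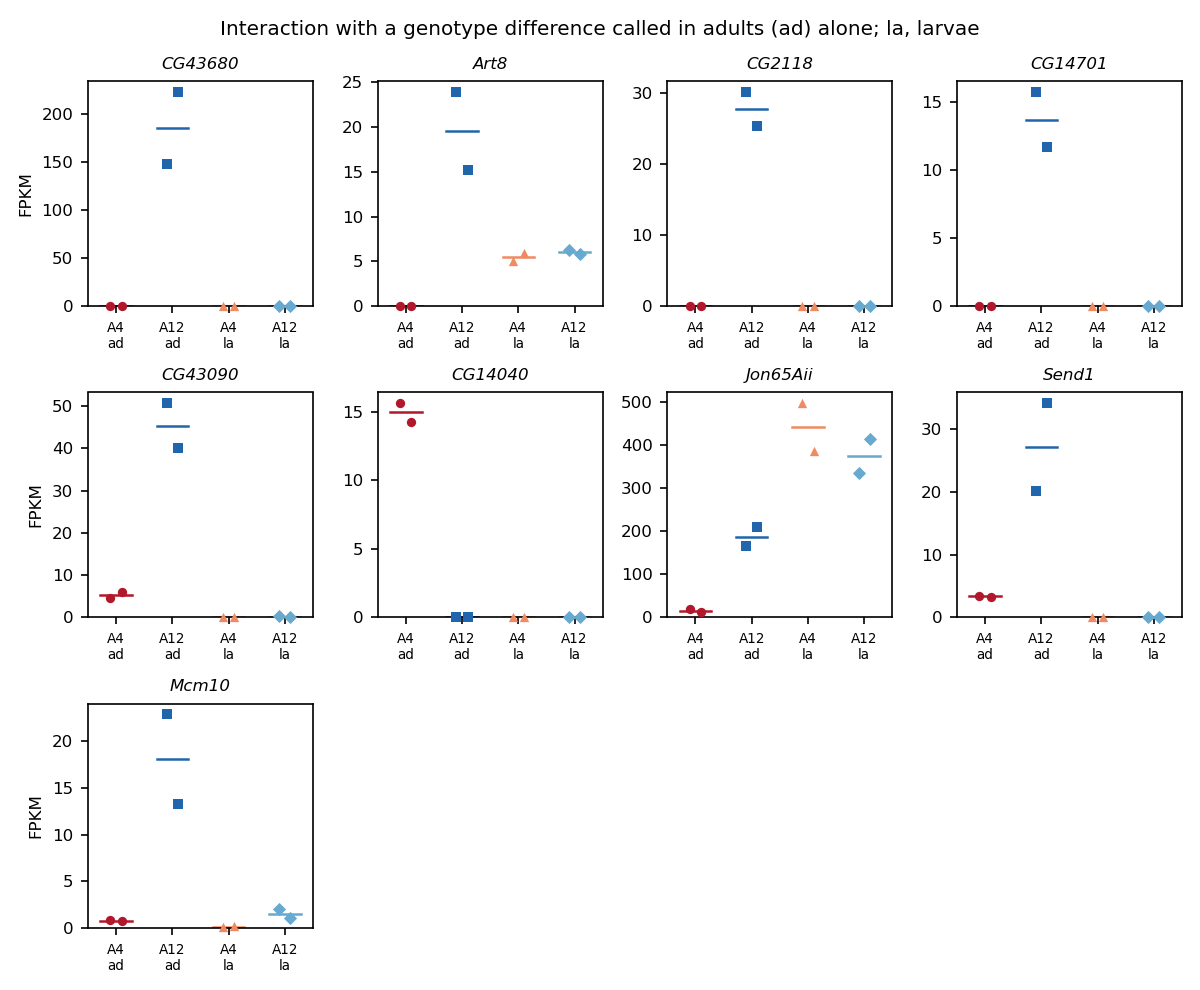
FPKM in each library (points) and group mean (bar) for 9 genes whose genotype difference passed in adults alone, with A4 adults, A12 adults, A4 larvae and A12 larvae from left to right and a y axis from 0. In 8 of the 9 panels the A12 adults lie above the A4 adults, as for Mcm10, at 0.901 and 0.761 FPKM in A4 adults against 22.8 and 13.3 FPKM in A12 adults, and in CG14040 the A4 adults lie above. Mcm10, CG43680, CG2118, CG14701 and CG14040 passed the filter on low values only through the adult group where they are high.

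Another 7 genes differed in the same direction at both stages but by unequal amounts. LysX (3L 1194739 to 1195302), a lysozyme gene with close paralogs, had 1.35 and 0.383 FPKM in A4 adults, 27.6 and 36.8 in A12 adults, 3.37 and 6.78 in A4 larvae and 797 and 980.2 in A12 larvae. A4 was lower at both stages, with differences of -4.16 in adults and -6.79 in larvae, and the interaction was 2.63 ± 0.54 (adjusted p = 0.0221), which was lost without A4 adults 1, A12 adults 1, A4 larvae 1 or A12 larvae 2. CG3588 (X 2813803 to 2818459) had 4.77 and 3.696 FPKM in A4 adults, 0.104 and 0.116 in A12 adults, 87.6 and 110.1 in A4 larvae and 0.07699 and 0.262 in A12 larvae. A4 was the higher genotype at both stages, by 2.26 and 6.87 (interaction -4.61 ± 0.31, adjusted p = 0.0005796), and its model overlaps that of kirre. CG1304 (X 20835548 to 20836443) and CG13822 (3R 19503080 to 19504143, GILT3 in RefSeq) were also higher in A4 at both stages, with interactions of -1.61 ± 0.33 and -1.15 ± 0.26 that did not pass without centring. CG1304 was lost without either A4 adult library, A4 larvae 2 or A12 larvae 1, and CG13822 without any 1 library except A12 adults 1. CG31219 (3R 15476596 to 15478152) had 10.7 and 11.1 FPKM in A12 adults and 4.64 and 3.58 in A12 larvae. CG32379 (3L 7389455 to 7391309) had 12.5 and 7.77 FPKM in A12 adults and 3.71 and 2.3 in A12 larvae. Neither exceeded 0.0429 FPKM in A4 of either stage. Their interactions of -1.65 ± 0.27 and -1.92 ± 0.31 did not pass after quantile normalization. For these genes the genotype difference stood at both stages, and the interaction measures only its unequal size on a scale to which the pseudocount contributes.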

How the data were processed

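RNA from whole females was depleted of ribosomal RNA with Ribo-Zero and made into Illumina TruSeq libraries, per the labels' protocols. The authors deposited 1 table per library with FPKM per gene model in build dm3. The submitters' processing notes name Bowtie, Bowtie2, TopHat (version given as 0.6) and Cufflinks, with neither order nor options. The authors' table of log2 ratios was not used here. FPKM values hold no read counts, so depth and counting error are unknown. Small RNA genes took 61.4% to 80.3% of the summed FPKM of a library, which is why libraries were centred on the median tested gene.

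Of 15296 gene models, 17 with a failed or overloaded estimate in any library were removed. A further 185 marked as having too little data in any library were removed too, 24 of them with a mean of at least 1 FPKM. Of the rest, 9655 with a mean of at least 1 FPKM were tested. Values were log2(FPKM + 1), a scale that understates the change of low genes. limma 3.58.1 in R 4.3.3 fitted the 4 groups with a trended variance, and p-values were adjusted by Benjamini-Hochberg over all tested genes at a threshold of 0.05. The fit was tested on simulated data. Python 3.11.15 with matplotlib 3.10.9, numpy 2.4.6 and pandas 2.3.3 did the rest. Named genes are the 12 largest interactions in each direction, the 8 with the smallest adjusted p, up to 8 with opposite signs, up to 6 each with an adult difference alone or the same sign, and up to 3 members of each list, taken only from genes with the same sign in all 16 choices of 1 library per group, small RNA genes left out, and list members whether or not they passed, as well as roX1, roX2, w, lt, rl, Mcm10 and the gene of HP1a. Of the 123 named genes 121 were matched in RefSeq, 15 under another symbol. The comparison, the lists and the named genes were chosen with earlier results of these data known. The symbol mod(mdg4) is 1 of 105 that stand for more than 1 model, and its position says which one is meant.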

Additional observations from a re-analysis of the deposited data

Results flagged for a closer look

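The interaction tests by itself whether the genotype difference depended on stage, and 572 genes passed it with a positive and 932 with a negative sign. Of these 1504, 578 were called with each library left out in turn. Among the 1504, 8 had a difference that passed at each stage with opposite signs. Their interactions on the log2(FPKM + 1) scale were 6.64 for CG12272, -7.67 for arg, -4.42 for CG18404, -4.13 for CG9682, -2.21 for CG14615, 4.12 for Oat, -1.84 for CG9836 and -2.02 for CG9921. Groups of 2 libraries are too small for a test of an outlying sample.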

How the results depend on the processing

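The counts of genes with an interaction, 572 positive and 932 negative, ranged from 239 to 465 and from 430 to 1037 when 1 library was left out. Without centring there were 1049 positive ones. A threshold of 0.01 left 164 and 303, and a threshold of 0.1 gave 957 positive ones. The adult counts, 17 higher and 47 lower in A4, were 16 to 31 and 31 to 68 with 1 library left out, 9 and 28 with a mean of at least 5 FPKM, and 9 and 29 at 0.01. The 47 lower ones became 28 without genes listed at 0 and 24 without overlapping models, an alternative chosen after seeing the data. The larval counts, 1322 higher and 982 lower, were 729 to 1304 and 467 to 932 with 1 library left out, 847 and 2512 without centring, and 670 and 440 at 0.01.

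By class, with 1 library left out, larvae alone ranged from 595 to 1338, adults alone from 31 to 63, opposite signs from 4 to 10, same sign from 5 to 12 and neither from 32 to 125. At 0.01 these classes, adults alone aside, held 420, 2, 2 and 20 genes, and at 0.1 opposite signs, same sign and neither held 16, 11 and 315. Adults alone fell to 20 with a mean of at least 5 FPKM and to 12 without genes listed at 0 or without overlapping models. A pseudocount of 5 gave 4 with the same sign and 223 with neither. The cause of these changes was not tested, except that a stricter threshold or filter by its construction leaves fewer genes. Among named genes, the interaction of roX2 ranged from -4.10 without A4 larvae 1 to 0.57 without A4 larvae 2, and that of the HP1a gene from -0.0081 without A12 larvae 1, and slightly negative without A4 larvae 1 too, to 0.39 without A12 larvae 2. Those of lt and rl turned to 0.16 and 0.092 without centring.

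The labels number the 2 libraries of each group without saying what the numbers mean. The correlation across genes of the deviations of same-numbered libraries lay between -0.054 and 0.0854. Correlations over all genes cannot exclude a pairing that touches few genes, so whether the numbers pair libraries is unknown. With replicate number as a block 561 genes were positive and 964 negative, and 1379 were called with the same sign in both fits. Depth is unknown, and the 2 libraries per group limit the precision.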

Other observations

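Genes with an interaction were spread over the chromosome arms. The share of tested genes called was 14.7% on 2L, 13.7% on 2R, 16.5% on 3L, 18.0% on 3R and 14.8% on X. On chromosome 4 there were 4 of 69 (5.80%), all negative, and on heterochromatin and unplaced scaffolds 6 of 50 (12%), all negative. Both shares lay below the 15.6% of all tested genes.

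Genes with an interaction often lay side by side. Of 1497 such genes that are not small RNA genes, 36.3% were next to another one, against 23.97% of the genes not called, given as a description since neighbours can share reads. There were 12 runs of at least 4 neighbours called in the same direction, 11 of them negative. The longest held 9 genes on 3R (12946187 to 12961005), from CG34278 to CG31267, with interactions between -5.98 and -3.20, of which 3 models overlapped another. Another held the cuticle genes Lcp65Ag3, Cpr65Au, Lcp65Ag2, Lcp65Ag1 and Lcp65Ae, 5 genes on 3L (6123486 to 6131218) with none overlapping. The positive run was CG7924, CG34244, CG7906 and fz, on 3L (14226569 to 14361739).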
